A study of Homo sapiens with 4 samples.

Results

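The nonspecific IgG background of HCCLM3 cells was compared between high and low glucose over the 5326 regions that the authors list in both IgG tables. HCCLM3 is an established human hepatocellular carcinoma line. The members were all 5326 regions of the series, joined by chromosome, start and end, and 2 of its 4 libraries: IgG at high glucose and IgG at low glucose, 1 library each. The remaining pair, HNF4A at high and at low glucose, is given only beside the IgG values; HNF4A is a liver nuclear receptor. All 4 libraries carry the same label texts apart from the title: HCCLM3 lines made by lentiviral transduction of a full-length cDNA that is not named, grown in a medium whose description names high glucose. The glucose level is therefore known only from the titles, without a concentration. With 1 library per side, no difference below has a replicate check and none was tested between conditions. The ranges given are exact (Clopper-Pearson) 95% intervals of the reads of 2 libraries, which cover counting error only.

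In chromatin immunoprecipitation with sequencing (ChIP-seq), an IgG antibody without a chosen target recovers DNA that sticks to antibody and beads. Such background is known to be uneven along the genome: it is taller where chromatin is open and shears easily, where the cell carries extra DNA copies, and at satellite and duplicated sequence that the reference holds in fewer copies than the cell. Peaks of a factor are read against it. Region length ranged from 101 to 8704 bp (median 1030 bp), and each region carries the gene the authors list as closest, 4323 gene names in all and 33 regions with none. IgG reads do not measure expression; of 6 hepatocyte markers (ALB, APOA1, APOB, TTR, FGB and SERPINA1), only APOA1 was listed as closest to a region, with 7 and 2 reads, so the cell type could not be checked on them.

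IgG was higher at high glucose in most regions when scaled by relative library size. The libraries held 249744 and 198683 reads in the regions, at relative library sizes of 0.993 and 0.982. In every pair of read counts given here, high glucose comes first and low glucose second. The median region had 26 and 18 reads, and from the 5th to the 95th percentile regions ran from 5 to 103 and from 4 to 74 reads. Scaled by relative library size, the median log2 difference of high minus low was 0.51, a 1.42-fold excess at high glucose. The IgG levels come from separately scaled tables and total depth is not known, and scaled on the reads summed over all regions the median was 0.20. The ratio of all reads summed was smaller, 1.24-fold, or 0.31 (0.31 to 0.32) on the log2 scale. Every difference below called centred is the log2 difference of a region minus that median of 0.51, so that 0 means the same difference as the median region. After centring, the 5th and 95th percentiles lay at -1.26 and 1.11, and the quartiles at -0.41 and 0.39. A centred difference of 2-fold or more was seen in 331 regions above the median (6.21% of 5326) and in 416 below it (7.81%). Without centring the split was 1033 above and 180 below, and centred on the ratio of summed reads it was 503 above and 308 below. The exact interval of a region lay wholly above the median difference in 257 regions (4.83%) and wholly below it in 399 (7.49%).

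The difference varied with how dense the IgG background was, and the densest regions stood lowest. Density is given as reads of both libraries summed per kb of region, with a median of 42.1. Under 25 reads per kb, 1024 regions had a median centred difference of -0.20, and 2412 regions of 25 to under 50 had one of 0.01. From 50 to under 100 reads per kb, 1622 regions stood at 0.09. The median was -0.44 over the 150 regions of 100 to under 200 reads per kb, -0.61 over the 59 regions of 200 to under 500, and -0.69 over the 59 regions of 500 or more. Together the 268 regions of 100 or more reads per kb held 80380 and 83095 IgG reads, that is 32.2% and 41.8% of all reads in regions. Their median difference before centring was -0.06, so the 2 libraries were nearly level there. In the 5058 regions below that density the reads were 169364 and 115588, and the median before centring was 0.54. Of the 268 dense regions, 48 lay 2-fold or more below the median (17.9%, against 7.81% of all regions) and 3 lay 2-fold or more above it (1.12%, against 6.21%). HNF4A, centred on its own median of 0.36, was also below 0 in the dense regions, with a median of -0.37.

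**Figure D1:**
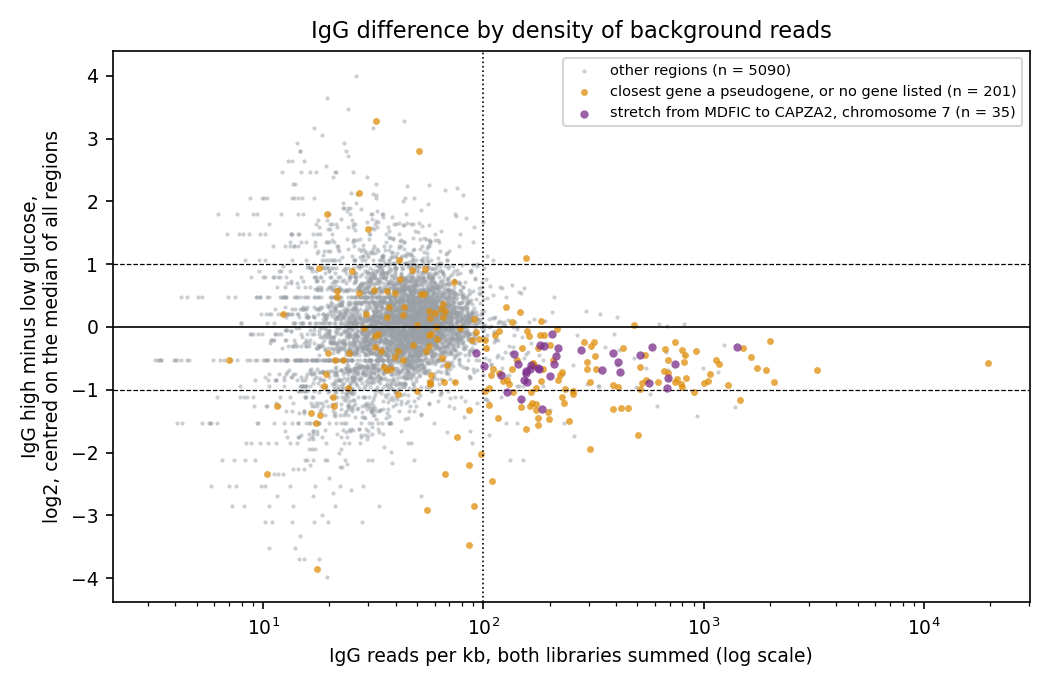
Each point is 1 of the 5326 regions, plotted by its IgG reads per kb over both libraries (horizontal, log scale) and its centred log2 difference of IgG at high minus low glucose (vertical), with dashed lines at 2-fold and a dotted line at 100 reads per kb. Right of the dotted line most points lie below 0, with the chromosome 7 stretch in purple. Regions whose closest gene is a pseudogene, or with no gene listed, are in orange.

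Of the 268 dense regions, 82 had a pseudogene as closest gene and 32 lay on unplaced or random contigs, sequence of the assembly without a known position. The distance from a region to its closest gene was not examined, so the name does not place the reads in that gene. The densest of all was a region closest to EMBP1, a pseudogene (chromosome 1, 121483763 to 121485550), with 17159 and 17783 IgG reads, which is 6.87% and 8.95% of all reads in regions. Its centred difference was -0.58 (-0.61 to -0.55). The region closest to GUSBP4, another pseudogene (chromosome 6, 58776035 to 58779427), held 5242 and 5864 reads, at -0.69 (-0.74 to -0.63). LOC441666 on chromosome 10 was closest to 21 of the dense regions and ACTR3BP2 on chromosome 2 to 15. The densest LOC441666 region (42384122 to 42385934) held 1669 and 2131 reads, at -0.88 (-0.97 to -0.79). The densest ACTR3BP2 region among those of 500 bp or more (92281138 to 92281794) held 377 and 587 reads, at -1.16 (-1.36 to -0.98). In these 4 regions the low glucose library held more IgG reads before any scaling. Rules for placing reads that match several copies of a sequence were not given in the sources used here, so the reads of these regions cannot be assigned to 1 copy.

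Among the 10 densest named regions, ZNF733P, ZXDA, LINC00293 and LOC101927151 were also below 0. The ZXDA region, closest to an X-linked zinc finger gene (chromosome X, 58561113 to 58561826), held 369 and 620 IgG reads, a centred difference of -1.27 (-1.46 to -1.09). HNF4A in the same region held 732 and 573 reads. The others ranged from -0.71 to -0.48. The only region of the 10 above 0 was that of RNA5-8S5, a gene of the ribosomal RNA repeat, on the unplaced contig gl000220.

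Of the 268 dense regions, 48 stood above 0. The ribosomal contig was among these and did not share the deficit of most dense regions. Its 3 regions closest to RNA5-8S5 held 3253 and 2176 IgG reads, 1679 and 1131, and 805 and 552. The centred differences were 0.05 (-0.02 to 0.13), 0.04 (-0.07 to 0.15) and 0.02 (-0.14 to 0.18). All 3 thus stood at the median region, at 624 to 817 reads per kb. HNF4A was nearly level in the same 3 regions, with 2536 and 2470, 1167 and 1181, and 545 and 524 reads, which after centring were -0.45, -0.51 and -0.43.

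A second dense group was a stretch of chromosome 7 from MDFIC to CAPZA2 (114521701 to 116505281), which spans the caveolin genes and MET; its limits were set after the values had been seen. MET encodes the receptor of hepatocyte growth factor, and CAV1 and CAV2 encode the coat proteins of caveolae. The stretch held 35 regions, 34 of them with 100 or more reads per kb, and all 35 lay below 0, from -1.30 to -0.12 with a median of -0.62. It held 21035 and 22186 IgG reads, 8.42% and 11.2% of all reads in regions. The CAV1 region (116163221 to 116168996) was the densest, with 4379 and 3795 reads, at -0.32 (-0.38 to -0.26). CAV2 was closest to 6 regions with 7249 and 8865 reads, a summed centred ratio of -0.82 (-0.86 to -0.77). The 3 MET regions held 1623 and 1511 reads, at -0.42 (-0.52 to -0.32), and the 2 regions of CAPZA2, an actin-capping subunit gene, held 2905 and 2716, at -0.43 (-0.50 to -0.35). LINC01393, a long noncoding RNA gene, stood lowest, with 1649 and 2078 reads in 8 regions, at -0.86 (-0.95 to -0.77). MDFIC, TFEC and TES had nearly equal reads in both libraries: 1632 and 1637, 558 and 544, and 1040 and 1040.

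The background in the stretch stood well above that of the next listed regions on each side in both libraries. The median region of the stretch had 97.6 reads per kb at high and 94.0 at low glucose. The 20 regions before it had 36.4 and 29.4, the 20 after it 20.2 and 16.6, and the median of all regions was 24.9 and 16.7. Outside the stretch, the 463 other regions of chromosome 7 had a median centred difference of 0.01, and only 18 of them were dense. The 20 regions before and the 20 after stood at -0.13 and -0.12. Dense regions outside the stretch, 234 over all chromosomes and contigs, had a median of -0.53, so a deficit was not particular to the stretch. HNF4A in the stretch was at -0.30 after centring. In a library made from many cells, more DNA copies per cell and more DNA recovered per copy cannot be told apart.

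**Figure D2:**
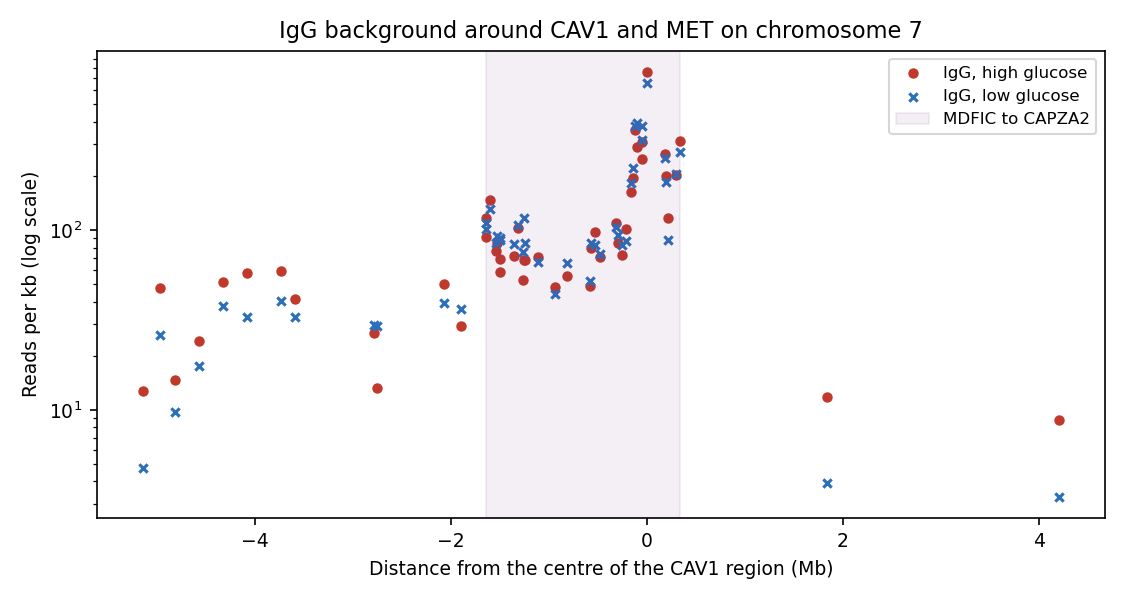
IgG reads per kb (log scale) in each region of chromosome 7 within 6 Mb of the centre of the CAV1 region, at high glucose (red dots) and low glucose (blue crosses), with the stretch from MDFIC to CAPZA2 shaded. Inside the shading the symbols lie close together and high, and outside it most red dots lie above the blue crosses.

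By chromosome, the medians differed little. Of the 22 chromosomes with 20 or more regions, 18 had a median centred difference within 0.1 of 0. Chromosome 22 stood highest, at 0.43 over 67 regions with 1019 and 603 IgG reads, and 11 of the 67 lay 2-fold or more above the median (16.4%, against 6.21% of all regions). Chromosomes 15 and 14 had like shares, 16.9% and 15.8%, as did regions under 20 reads, 13.9%. Shares 2-fold or more below the median were 5.97% on chromosome 22, 14.5% and 17.5% on chromosomes 15 and 14, and 21.1% under 20 reads. The ratio of summed reads on chromosome 22 was smaller than its median, at 0.23. Chromosome 5 followed at 0.13 and chromosome 11 at 0.10. Chromosome 21 stood lowest, at -0.26 over 32 regions with 565 and 538 reads, and chromosome 10 next, at -0.20 over 139 regions with 9639 and 10458 reads. On chromosome 10, 22 regions held 100 or more reads per kb, and without them the median was -0.15. Within each of these chromosomes the quartiles of the regions spanned 0: from -0.31 to 0.80 on chromosome 22, from -0.66 to 0.39 on chromosome 21 and from -0.79 to 0.42 on chromosome 10. Chromosomes 13 and Y had 13 regions together and are not described.

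On some chromosomes 1 dense region held much of the reads, and the summed ratio stood apart from the median. On chromosome 6 the summed reads were level, 6808 at high and 6940 at low glucose, and the summed centred ratio was -0.55 where the median region stood at -0.09. The GUSBP4 region alone held 77.0% and 84.5% of the chromosome's IgG reads. Chromosome 1 had a median of 0.00 and a summed ratio of -0.28, and 39.6% of its reads at high glucose came from the EMBP1 region. The 43 regions on 13 unplaced or random contigs had a median of -0.67, and 32 of them held 100 or more reads per kb. The 18 regions of the contig gl000199, assigned to chromosome 9 without a position, had a median of -1.01, with 888 and 1193 reads.

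Chromosomes also differed in the level of the background. Median IgG reads per kb, as a multiple of the median of all regions in the same library, ran from 0.52 on chromosome 6 to 1.19 on chromosome 19 at high glucose. At low glucose they ran from 0.547 on chromosome 14 to 1.28 on chromosome 20. Chromosomes 7, 8, 12, 19 and 20 stood highest, at 1.15 to 1.19 and 1.18 to 1.28. Chromosomes 5, 6, 10, 14, 15, 21 and 22 stood at 0.52 to 0.668 and 0.547 to 0.709, below all others in both libraries. Summed reads over summed length gave another order: chromosomes 10 and 6 then stood highest at high glucose, at 81.7 and 60.7 reads per kb against 38.5 on chromosome 19. Across the 22 chromosomes the order was nearly the same in both libraries, with a Spearman correlation of 0.96 between points that share their regions, base composition and DNA copies. The centred IgG and HNF4A medians of the chromosomes had a Spearman correlation of -0.14 and the same sign in 10 of 22; on chromosome 22 HNF4A stood at 0.02 and on chromosome 21 at 0.18.

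**Figure D3:**
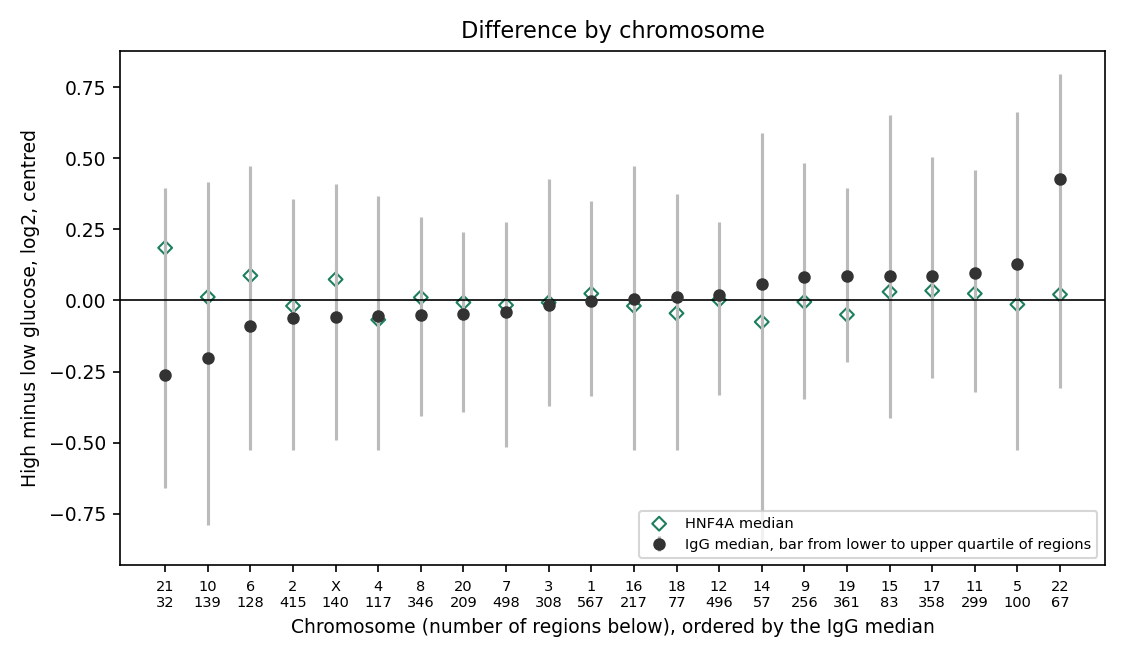
Median centred log2 difference of high minus low glucose for each of 22 chromosomes, for IgG (black dots, with bars from the lower to the upper quartile of its regions) and for HNF4A (green diamonds), with the number of regions under each name. Chromosome 22 lies highest for IgG at 0.43 and chromosome 21 lowest at -0.26, and all 22 bars cross 0.

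Region length went with the spread rather than with the direction, apart from the shortest regions. Regions of 500 to under 1000, 1000 to under 1500, 1500 to under 2000 and 2000 bp or more had medians of -0.01, 0.03, 0.01 and 0.01. The 310 regions under 500 bp had a median of -0.35, but 130 of them held 100 or more reads per kb, and without those the median was 0.06. The share of regions 2-fold or more below the median was 21.6% under 500 bp and 0.89% at 2000 bp or more, and the share above it 13.2% and 0.18%. Longer regions held more reads: the median was 16 and 12 IgG reads at high and low glucose under 500 bp, and 88 and 61 at 2000 bp or more.

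The spread followed the reads but stayed above what counting alone gives. With fewer than 20 IgG reads over both libraries, 922 regions had a standard deviation (SD) of 1.19, where counting error at the same reads gives 0.98. From 80 to 159 reads, 880 regions had an SD of 0.41 against 0.29. In the 328 regions of 160 or more reads the SD was 0.44 against 0.19; 108 of these were dense. No region of 160 or more reads lay 2-fold above the median and 10 lay 2-fold below it.

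**Figure D4:**
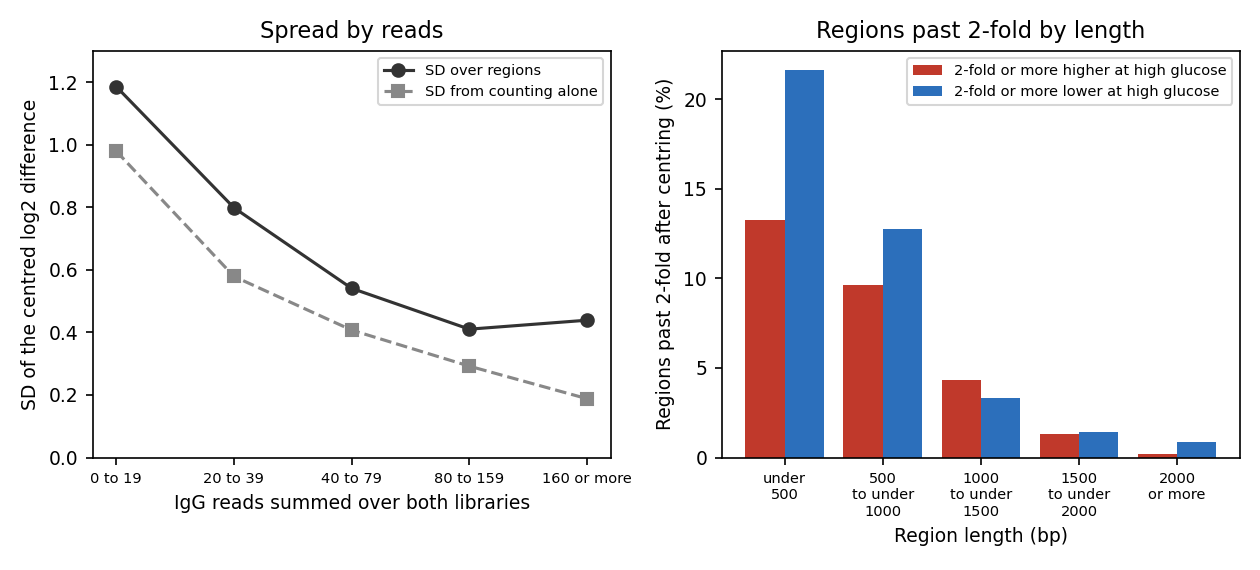
The left panel gives the SD of the centred log2 IgG difference over regions (black) and the SD that counting error alone gives (grey, dashed) in 5 classes of IgG reads. The right panel gives the percentage of regions 2-fold or more above (red) and below (blue) the median in 5 classes of region length; both are lower in longer regions, from 13.2% and 21.6% to 0.18% and 0.89%.

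Among regions with at least the median of 44 IgG reads over both libraries, the largest excess at high glucose was at TELO2. The region closest to TELO2, whose protein helps kinases of the PI3K-related family, mTOR among them, to mature (chromosome 16, 1542738 to 1543997), held 62 and 9 IgG reads, a centred difference of 2.26 (1.24 to 3.45). SNF8, a gene of the ESCRT-II sorting complex (chromosome 17, 47021691 to 47022650), had 42 and 8 reads, at 1.87 (0.76 to 3.17). MARK2, an AMPK-related kinase gene of cell polarity (chromosome 11, 63606162 to 63607031), had 54 and 11, at 1.77 (0.82 to 2.85). SP7, a bone transcription factor gene, had 37 and 8, and SPEN, a corepressor gene, had 50 and 11, at 1.68 and 1.66. LOC100287036, C1orf192, NCKAP1, NIT2 and ARF4 completed the 10, at 1.62 to 1.88. All 10 held 44 to 71 reads over both libraries, 9 of them are protein coding (82.5% of all regions are closest to such a gene), and none was dense. At this number of reads, 56 of 2683 regions lay 2-fold or more above the median difference (2.09%) and 57 below it (2.12%).

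HNF4A reads did not follow IgG in these 10 regions. At TELO2 the HNF4A library held 50 and 41 reads, at SNF8 34 and 20, and at MARK2 38 and 40. Centred, the 10 HNF4A differences ran from -0.56 to 0.40, with 4 above 0 and none at 2-fold. Over all regions HNF4A lay 2-fold or more above its median in 1.69% and below it in 2.01%. At TELO2, SNF8, MARK2, C1orf192 and SPEN the IgG library at high glucose held more reads than the HNF4A library of the same glucose level. At LOC100287036, SP7, NCKAP1, NIT2 and ARF4 it held fewer. All 10 regions were chosen for their IgG excess at high glucose. Over all regions the medians at high glucose were 26 IgG and 50 HNF4A reads.

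The 9 lowest regions were of another kind. In all 9 the low glucose library held more IgG reads also before centring. That follows from how they were chosen, since centring lowers every difference by only 0.51 and all 9 stood at -1.43 or lower. The lowest was closest to TPTE, a testis-expressed phosphatase-like gene with copies elsewhere (chromosome 21, 10699720 to 10700036), with 12 and 36 IgG reads, at -2.11 (-3.19 to -1.14). PPP1R3A, the muscle glycogen-targeting subunit gene of protein phosphatase 1 (chromosome 7, 113413824 to 113414955), had 15 and 33 reads, at -1.66 (-2.65 to -0.74). ANKRD26P1, a pseudogene (chromosome 16, 46403250 to 46403993), had 37 and 79, at -1.62 (-2.22 to -1.04). LINC00273 (chromosome 16, 33973372 to 33975633) had 64 and 120, at -1.43 (-1.89 to -0.98). LOC441666, FLJ26245, DLGAP1-AS2, LOC101928381 and ACTR3BP2 made up the rest, at -1.72 to -1.49. Only 2 of the 9, TPTE and PPP1R3A, are protein coding. HNF4A at TPTE held 34 and 36 reads, at PPP1R3A 51 and 40, and at ANKRD26P1 84 and 89. Centred, HNF4A in the 9 ran from -1.15 to 0.09, and only LOC101928381, with 19 and 30 HNF4A reads, lay past 2-fold.

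**Figure D5:**
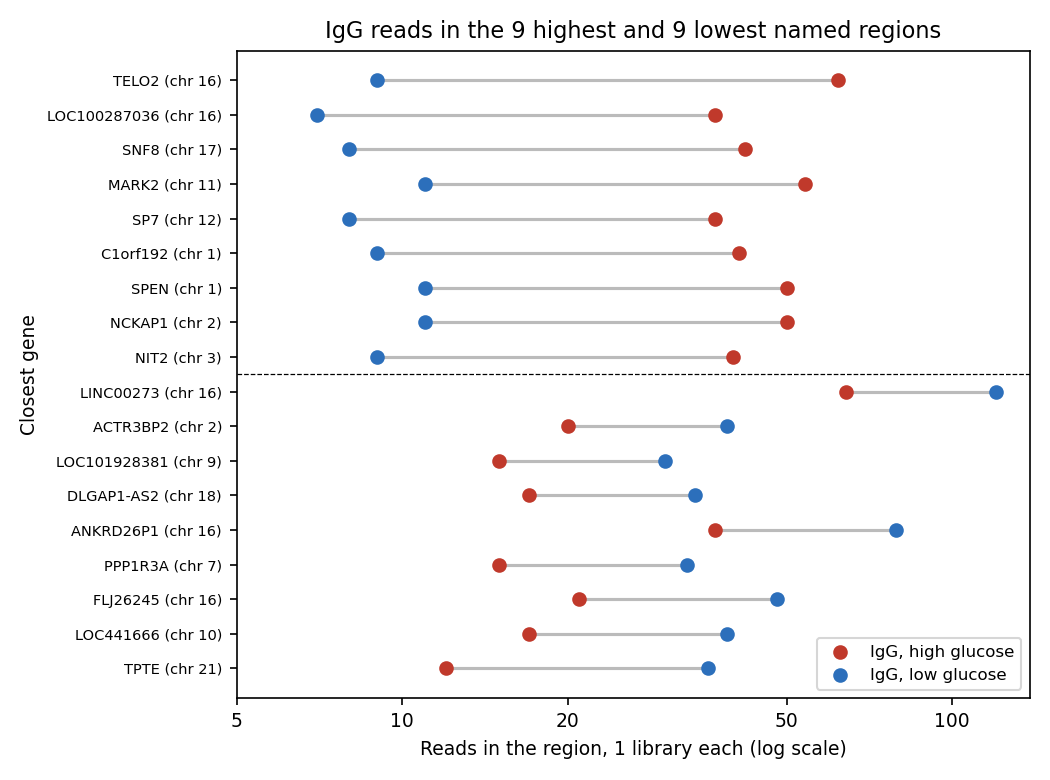
IgG reads (log scale) at high glucose (red) and low glucose (blue) in the 9 named regions with the highest centred difference (above the dashed line) and the 9 with the lowest (below it), 1 library each. Above the line red lies to the right, with TELO2 at 62 and 9 reads, and below it blue lies to the right, with TPTE at 36 and 12.

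To show what the closest genes look like, the RefSeq promoters (GRCh38.p14, 250 bases before to 50 after the gene's start, on the gene's strand) of the 2 highest and the 2 lowest protein-coding genes are printed 5′ to 3′, with each CG in capitals. The regions are on hg19, so whether a region overlaps its gene's promoter was not determined. TELO2, SNF8 and TPTE have 33, 30 and 44 CG, and PPP1R3A has 2.
TELO2: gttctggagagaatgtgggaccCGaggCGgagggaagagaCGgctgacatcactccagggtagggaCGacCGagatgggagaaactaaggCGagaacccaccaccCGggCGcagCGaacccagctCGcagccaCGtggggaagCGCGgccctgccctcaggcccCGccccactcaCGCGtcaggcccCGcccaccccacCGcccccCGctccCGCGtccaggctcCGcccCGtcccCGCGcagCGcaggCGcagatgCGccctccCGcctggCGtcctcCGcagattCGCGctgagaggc
SNF8: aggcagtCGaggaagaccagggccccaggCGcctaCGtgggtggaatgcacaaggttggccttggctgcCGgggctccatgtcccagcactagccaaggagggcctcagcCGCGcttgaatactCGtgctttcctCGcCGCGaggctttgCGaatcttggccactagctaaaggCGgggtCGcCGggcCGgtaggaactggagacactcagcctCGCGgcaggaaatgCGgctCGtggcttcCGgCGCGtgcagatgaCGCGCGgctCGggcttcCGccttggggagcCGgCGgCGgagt
TPTE: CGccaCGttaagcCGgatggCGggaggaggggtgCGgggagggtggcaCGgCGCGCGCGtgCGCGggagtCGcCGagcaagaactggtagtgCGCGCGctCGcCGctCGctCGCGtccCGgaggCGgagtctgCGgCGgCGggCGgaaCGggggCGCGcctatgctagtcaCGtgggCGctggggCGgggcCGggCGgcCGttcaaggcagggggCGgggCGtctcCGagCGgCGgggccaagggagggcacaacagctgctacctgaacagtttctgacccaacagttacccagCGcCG
PPP1R3A: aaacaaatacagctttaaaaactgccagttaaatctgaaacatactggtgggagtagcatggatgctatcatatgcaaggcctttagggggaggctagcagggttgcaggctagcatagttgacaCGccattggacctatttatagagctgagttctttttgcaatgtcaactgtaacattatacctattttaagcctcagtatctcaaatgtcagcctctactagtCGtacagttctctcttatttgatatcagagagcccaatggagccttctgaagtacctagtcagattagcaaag

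The number of CG, which reads the same on both strands and cannot overlap itself, went only weakly with the IgG difference. Over 3482 regions whose closest protein-coding gene has a RefSeq promoter, those with under 10 CG had a median centred difference of -0.11 (505 regions) and those with 40 or more a median of 0.08 (457 regions). With 40 or more IgG reads these were -0.04 and 0.15. The Spearman correlation of CG number and difference was 0.07 over regions, which are not replicates. HNF4A stood at 0.03 in both end classes. Of 27305 such promoters in RefSeq, 95.8% hold a CG, with a median of 14, and 22.1% hold 30 or more.

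By the type of the closest gene, the names of 5124 of 5293 regions with a gene matched RefSeq. The 4392 regions at protein-coding genes had a median centred difference of 0.03, the 382 at long noncoding RNA genes -0.11 and the 162 at microRNA genes -0.14. Pseudogenes stood at -0.53 over 168 regions, with 40490 and 42977 IgG reads; 82 of these were dense, and without them the median was -0.19. The 33 regions with no gene listed stood at -0.90, and 29 of them were dense.

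Most genes had 1 region (3662 of 4323), and 23 had 5 or more. Of the 23, 19 had a median below 0. ANKRD26P1 was lowest, at -1.02 over 14 regions with 467 and 668 reads, followed by the pseudogenes ZNF733P and GYG2P1, both at -0.97, then LINC01393 at -0.86 and LOC441666 at -0.82 over 24 regions. In each of these 5, every region lay below 0. At the other end stood LINC00963, at 0.31 over 5 regions with 189 and 100 reads, PRKAG2, the AMPK gamma 2 subunit gene, at 0.21 over 7 regions with 205 and 128, and TRIB1, a pseudokinase gene, at 0.20 over 7 regions with 232 and 166. ASAP1 and MTRNR2L1 stood at 0.17 and -0.03. The regions of LINC00963 ranged from -1.30 to 0.95, those of PRKAG2 from -0.48 to 0.60 and those of TRIB1 from -0.45 to 0.47. None of these genes held to 1 side. On summed reads TRIB1 turned to -0.04 (-0.34 to 0.25).

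Genes of liver metabolism showed no common direction in the background. Over all 4323 genes the median was 0.03, and 6.25% lay 2-fold or more above 0 and 6.32% below. Of 24 genes of glycolysis and glucose uptake, 12 had a region, with a median of -0.09, 4 above 0 and none at 2-fold. LDHA, the lactate dehydrogenase A gene, had 32 and 13 IgG reads, at 0.77 (-0.20 to 1.83), and GAPDH had 149 and 133, at -0.36 (-0.71 to -0.01). Of 22 fatty acid genes, 9 had a region, with a median of -0.04. ACSL5, which activates fatty acids, had 15 and 3 reads, at 1.80 (-0.03 to 4.23), and CPT1A, the carnitine transferase gene of mitochondrial import, had 9 and 2, at 1.64 (-0.63 to 4.89). Both lay past 2-fold, and both intervals included 0. HADHB, of the mitochondrial trifunctional protein, had 57 and 31 reads, at 0.35 (-0.30 to 1.03). PPARA, a nuclear receptor gene of fasting metabolism, had 7 and 10, at -1.04 (-2.67 to 0.50).

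The HNF4A gene itself stood near the median region, with 25 and 17 IgG reads, at 0.03 (-0.92 to 1.01). Liver transcription factors had 6 of 20 members with a region and a median of 0.00. ONECUT1 had 17 and 4 reads, at 1.56 (-0.05 to 3.59), and NR1I2, a receptor of foreign compounds, had 10 and 16, at -1.20 (-2.51 to 0.02). Hepatocyte secreted proteins and lipoproteins had 7 of 23, with a median of -0.08, from FGG with 3 and 7 reads to APOA1 with 7 and 2. With 20 or more reads in a region, that median turned to 0.30. AMBP, a plasma protein precursor gene, had 32 and 13, at 0.77. AMPK and mTOR genes had 14 of 22, with a median of 0.13 and 10 above 0. RICTOR, the mTORC2 scaffold gene, had 29 and 7, at 1.52 (0.30 to 2.96). PRKAA2, the AMPK alpha 2 gene, had a listed 1 read at high glucose, which may stand for 0, and 9 at low glucose, an interval from -9.15 to -0.84.

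Among the lists with 10 or more members, genes with near-identical copies, genes around MET and genes of liver cancer loci had the lower medians. Genes with near-identical copies (11 of 39 with a region) stood at -0.45, with 2 above 0 and 2, TPTE and LINC00273, at 2-fold below it. The list of genes around MET (10 of 22) reached beyond the stretch from MDFIC to CAPZA2 and stood at -0.50. ANKRD7, outside that stretch, with 9 and 3 reads, was the only one above 0. PPP1R3A, also outside it, was the only one 2-fold or more below 0, at -1.17. The list of loci often amplified in liver cancer (10 of 19) stood at -0.25, with 3 above 0. DNA copies were not measured in these cells here. BCL9, a Wnt coactivator gene, had 47 and 67 reads in 1 of its 3 regions, at -1.04 (-1.61 to -0.48). Over all 3 regions BCL9 had 223 and 199 reads and a median of -0.17, the value that entered the list. MDM4, a p53 inhibitor gene, had 20 and 27 reads, at -0.96 (-1.87 to -0.07), and MYC 14 and 18, at -0.89 (-2.01 to 0.20). Housekeeping genes (12 of 22) stood at -0.06, with ACTB at -0.01 and GUSB, with 39 and 18 reads, at 0.59. Neuron and muscle genes (5 of 23) stood at 0.32, blood and stromal genes (2 of 18) at -1.01, and developmental regulators (6 of 35) at -0.46, on few members each. With 20 or more reads the developmental regulators stood at -0.0060. The regions furthest from 0 with 44 or more reads were those of SYT7 with 68 and 32 reads, COL1A2 with 26 and 29 and LHX1 with 42 and 19.

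Neighbouring regions shared part of their IgG difference over short distances. Among regions with 20 or more IgG reads, 367 neighbouring pairs lay less than 10 kb apart, and their centred differences correlated at 0.39 (Pearson) and 0.42 (Spearman). These were 0.14 and 0.12 for 1606 pairs 10 to 100 kb apart, and 0.03 and 0.04 for 1796 pairs from 100 kb to 1 Mb. With both neighbours under 100 reads per kb, the 243 closest pairs had 0.11 and 0.07. For HNF4A the closest pairs had 0.18 and 0.20. The pairs share their library and their local sequence and copies, and are not replicates.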

How the data were processed

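Chromatin from HCCLM3 cells was immunoprecipitated with HNF4A antibody or IgG at high and low glucose, 1 library per group. Per the submitters' processing notes, bcl2fastq, Bowtie 1.1.2, MACS, DiffBind and HOMER were used with build hg19, with settings and region choice not given in the sources used here. Deposited by the authors are log2 levels per region, a log2 fold, and p-values with FDR, in 3 tables of the same 5326 regions; the deposited p-values were not used, since none compares IgG with IgG.

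The 2 IgG levels stand in separate tables, scaled separately. Without the log, 100% of values were whole multiples of 1 read within 0.01, which gave reads and relative library sizes; total depth is not given. A listed 1 may stand for 0 or 1 (42 regions at high and 58 at low glucose). PCR copies are not independent molecules. File starts were read as 0-based and are printed 1-based. Names are those of the high glucose table; 14 differ in the low glucose table.

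The log2 difference was computed per region, scaled by relative library size and centred on its median over all regions (Python 3.11.15, pandas 2.3.3, scipy 1.17.1). A 2-fold limit stands in for a call. The arithmetic was tested on simulated reads. Named regions had at least the median of summed reads: the 10 highest and 10 lowest, 1 per gene. The rule also takes the 10 densest of 500 bp or more, genes with 5 or more regions at either end, and the largest of each of 12 gene lists. Members and lists were chosen with earlier results of these data known, and the limit of 100 reads per kb, the stretch from MDFIC to CAPZA2, the gene types and the CG classes were set after the data were seen. Genes named beyond the rule were chosen after their values were seen, and a few that the rule names are not reported here. Alternatives changed scaling, centring, filters, fold limits and summaries.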

Additional observations from a re-analysis of the deposited data

How the results depend on the processing

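No paired analysis was possible because each group has 1 library, and no replicate could be left out. Over regions, the median difference of 0.51 became 0.53 without scaling, 0.20 scaled on summed reads, 0.53 with 20 or more reads and 0.49 with 1 read added. The counts past 2-fold (331 above, 416 below) became 1033 and 180 without centring, 203 and 221 with 20 or more reads, 881 and 951 at 1.5-fold, and 53 and 71 at 4-fold; centred on summed reads, 503 lay above. The SD of 0.75 became 0.62 with 20 or more reads and 0.59 as a scaled median absolute deviation.

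With summed reads in place of medians, chromosome 7 moved from -0.04 to -0.34, 10 from -0.20 to -0.64, 21 from -0.26 to -0.46, 22 from 0.43 to 0.23, regions under 500 bp from -0.35 to -0.46 and regions of 2000 bp or more from 0.01 to -0.27. Leaving out dense regions was an alternative chosen after seeing the data. The medians were then 0.011 for chromosome 7, -0.15 for 10, 0.059 under 500 bp and 0.031 at 2000 bp or more. Without genes of the list around MET, chromosome 7 stood at 0.0014. With 20 or more reads chromosome 10 stood at -0.37. The shortest 20% of regions stood at -0.11. Reads per kb relative to all regions were 1.19 on chromosome 19 and 0.52 on chromosome 6; as summed reads over summed length they were 0.999 and 1.58, and on regions of 500 bp or more chromosome 6 had 0.53.

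LINC00963 moved from 0.31 to 0.95 by its region with the most reads. By that region and with 20 or more reads, the list around MET stood at -0.34 and -0.56 and near-identical copies at -0.58 and -0.55. A named region counted as unmoved if it shifted by less than the distance from the middle of its counting interval to the ends. Of 40 named regions, all 40 were unmoved with 1 read added. Without centring every region shifts by 0.51, so the split of 29 unmoved and 11 moved reflects only the width of the intervals. Scaling cannot change a centred value. Depth limits the short regions: with fewer than 20 reads, counting error alone gives an SD of 0.98, and 89 regions were listed at 1 read in a library.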
